A study of Mus musculus with 19 samples.

Results

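Triglyceride is the form in which fat cells store fatty acids. Genes that make, use or load fatty acids onto its glycerol-3-phosphate backbone were followed in mouse cells and brown fat with and without MED1. The route was represented by 10 listed genes, Pck1, Gpd1, Gpd2, Gk, Aqp7, Gpam, Agpat2, Lpin1, Dgat1 and Dgat2. A gene was taken from a transcript cluster of the array whose annotation gave that symbol alone, and the brightest cluster over all 19 arrays was used if there were several. This gave 9 of the 10 genes, out of 22180 genes measured. Gk, which encodes glycerol kinase, was not analysed here. Gpd1 had 2 clusters, with mean levels of 8.57 and 5.52 on the log2 scale, and the brighter was used.

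Fat cells make glycerol-3-phosphate in several ways. Pck1, the cytosolic phosphoenolpyruvate carboxykinase, feeds it from pyruvate in glyceroneogenesis, Gpd1 reduces dihydroxyacetone phosphate to it in the cytosol, and the channel Aqp7 moves glycerol across the cell membrane. Gpd2, the mitochondrial enzyme, runs the opposite way and passes electrons from glycerol-3-phosphate to the respiratory chain, a shuttle known for its activity in brown fat. Gpam then adds the first fatty acid, Agpat2 the next, Lpin1 removes the phosphate to leave diacylglycerol, and Dgat1 or Dgat2 adds the last fatty acid.

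MED1 belongs to Mediator, a coactivator complex between DNA-bound factors and the polymerase, and it contacts nuclear receptors. In the cell experiment, MED1-KO 3T3-L1 cells made with CRISPR/Cas9 were set against the WT parent line, with 2 arrays of each on day 0 and 2 on day 2 of hormone-driven differentiation by the titles. 3T3-L1 cells are mouse preadipocytes of fibroblast shape that become fat cells when given adipogenic hormones. Each knockout array held RNA pooled from individual clones, so differences that arose in cloning cannot be told apart from loss of MED1. At embryonic stage E17.5, interscapular brown fat of Myf5Cre Med1f/f embryos (4 arrays), with both Med1 alleles floxed, was set against that of Myf5Cre Med1f/w embryos (3 arrays), with 1 floxed and 1 wild-type allele. Both of these groups carried Myf5Cre, which acts in precursors of brown fat and of skeletal muscle, so in those cells the controls could lose 1 allele too. At 10 weeks, brown fat of AdipoqCre Med1f/f mice (2 arrays) was set against that of Med1f/f mice without Cre (2 arrays), and the Adipoq promoter drives Cre in fat cells, so other cell types of the tissue keep Med1. Nothing in the labels says that replicates came from separate cultures or animals, and p-values then measure the spread between these arrays.

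Values are levels on a log2 scale, normalized by the authors with RMA, so a difference of 1 is a 2-fold change. Array medians ran from 4.69 to 4.79 for cells, 3.49 to 3.57 at E17.5 and 2.87 to 2.89 at 10 weeks, and no level was compared across the 3 experiments. The number of arrays limits the precision. The day is uncertain for 4 of the 8 cell arrays, because their title and their source label name different days: both arrays titled day 2 replicate 1 are labelled as taken before the hormones, and both titled day 0 replicate 2 as taken 2 days after them. Days are by title here, and values by the source label stand beside the main results on days. Med1 was 7.07 and 7.16 in MED1-KO cells on day 0 and 7.08 and 7 on day 2, against 8.23 and 8.48 in WT cells on day 0 and 8.55 and 8.28 on day 2 (over pairs, log2 fold change -1.31 ± 0.08, adjusted p = 0.00108 by limma). The Med1 arrays overlapped between genotypes at E17.5, with 6.88 to 7.10 in Myf5Cre Med1f/f against 6.94 to 7.82 in Myf5Cre Med1f/w (-0.35 ± 0.19, adjusted p = 0.369). At 10 weeks Med1 was 5.28 and 5.13 in AdipoqCre Med1f/f, against 5.99 and 6.90 in Med1f/f mice (-1.24 ± 0.31, adjusted p = 0.19). The array cluster may read RNA outside the deleted exons.

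The windows from 250 bases before to 50 bases after a gene's start were searched for 8 short motifs on both strands in RefSeq promoters of build GRCm38.p6, of which 10 windows belonged to 7 of the 10 genes (not Gpd1, Dgat1 or Dgat2). Windows are printed for Gpd2 and Lpin1, which passed the test in at least 1 comparison below, and for Pck1, which had the largest fold change of the 9 genes. The choice of Pck1, and of the motif shown in it, was made after values were seen. Capitals mark the motif found. In Pck1 these are TTACGTCA, the letters of the cAMP response element described in the rat gene, at position -93 from the start. In the first Gpd2 window they are TTGCTTAA, a match to the C/EBP-like motif TTGCNNAA at -86, and the second Gpd2 start had no match. In Lpin1 they are AGGTCA, the element that many nuclear receptors bind singly or as a pair, at -74.
Pck1, chr2:173152823-173153122, plus strand: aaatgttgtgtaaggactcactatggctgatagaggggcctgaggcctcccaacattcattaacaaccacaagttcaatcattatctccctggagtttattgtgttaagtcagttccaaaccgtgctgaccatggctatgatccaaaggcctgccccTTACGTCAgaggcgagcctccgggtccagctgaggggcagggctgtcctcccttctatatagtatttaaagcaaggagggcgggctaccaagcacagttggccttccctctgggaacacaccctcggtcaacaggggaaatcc
Gpd2, chr2:57237428-57237727, plus strand: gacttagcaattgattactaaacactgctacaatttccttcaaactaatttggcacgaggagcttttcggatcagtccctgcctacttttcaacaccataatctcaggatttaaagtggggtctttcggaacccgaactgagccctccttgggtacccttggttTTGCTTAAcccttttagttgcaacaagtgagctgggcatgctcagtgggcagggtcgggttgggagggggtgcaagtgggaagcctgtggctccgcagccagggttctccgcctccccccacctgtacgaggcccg
Gpd2, second start, chr2:57238132-57238431, plus strand: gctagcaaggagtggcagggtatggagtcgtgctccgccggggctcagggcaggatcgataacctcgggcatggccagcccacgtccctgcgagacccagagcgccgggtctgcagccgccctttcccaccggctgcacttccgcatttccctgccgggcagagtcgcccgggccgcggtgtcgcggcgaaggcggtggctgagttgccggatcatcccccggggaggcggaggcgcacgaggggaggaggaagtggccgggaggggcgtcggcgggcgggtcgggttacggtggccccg
Lpin1, chr12:16610917-16611216, minus strand: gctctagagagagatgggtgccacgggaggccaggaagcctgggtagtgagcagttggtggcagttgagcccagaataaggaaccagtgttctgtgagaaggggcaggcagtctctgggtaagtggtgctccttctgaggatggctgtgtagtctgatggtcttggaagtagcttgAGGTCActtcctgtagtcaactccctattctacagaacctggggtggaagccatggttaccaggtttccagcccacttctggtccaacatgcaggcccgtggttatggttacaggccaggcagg

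These letters are common, so a match describes a window and is not a binding site. AGGTCA stood in 4 of the 10 windows and in 16.3% of all 32851 promoter windows. These windows belonged to Gpam, Lpin1 and Aqp7. The 2 windows of Aqp7 overlap and share 1 of the matches, so they are not separate counts. TTGCNNAA stood in 2 of 10 and in 10.8% of all. TTACGTCA stood in 1 of 10 and in 0.499% of all. The E-box CACGTG was in 1 of 10 against 7.15% of all, and the CCAAT box in 1 of 10 against 37.4% of all. Found in none of the 10 were TATAAA (13.6% of all), TGACGTCA (1.79% of all) and DR1, 2 copies of AGGTCA with 1 base between them, which contains the single element (0.0396% of all).

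During the first 2 days of differentiation, 3 of the loading enzymes went up in WT cells. Dgat2, which makes triglyceride at the endoplasmic reticulum and lipid droplets, was 4.5 and 4.62 in WT cells on day 0 and 6.06 and 6.30 on day 2. It rose 3.08-fold (log2 fold change 1.62 ± 0.13, adjusted p = 0.000113 by limma over all genes, as for every adjusted p here). Dgat1, its unrelated counterpart, was 7.32 and 7.11 on day 0 and 8.35 and 8.05 on day 2, and rose 1.98-fold (0.99 ± 0.17, adjusted p = 0.00684). Lpin1, the phosphatidate phosphatase, was 6.62 and 6.98 on day 0 and 7.57 and 7.80 on day 2, and rose 1.84-fold (0.88 ± 0.17, adjusted p = 0.0104). No array of day 0 reached the day 2 arrays in these genes. Higher without overlap on day 2 were 5 of the 9 genes and 5892 of all 22180 genes. Lower without overlap were 1 of the 9 and 4913 of all. By the test 3.44% of all genes rose, and 0 of the 9 genes fell against 5.64% of all genes. Gpd1 had a value of 0.41 ± 0.13 (adjusted p = 0.0835) and Gpd2 of -0.54 ± 0.18 (adjusted p = 0.117). Without WT day 0 replicate 1 or WT day 2 replicate 2 the adjusted p of Lpin1 was 0.0703 or 0.0707, and without WT day 0 replicate 2 that of Dgat1 was 0.0523.

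In MED1-KO cells 2 of these enzymes rose and Dgat2 did not pass the test. Lpin1 was 6.31 and 6.55 on day 0 and 7.91 and 8.09 on day 2, a 2.97-fold rise (1.57 ± 0.17, adjusted p = 0.000846). Dgat1 was 7.35 and 7.03 on day 0 and 8.05 and 7.80 on day 2, a 1.66-fold rise (0.73 ± 0.17, adjusted p = 0.0382). Dgat2 was 4.98 in both knockout arrays on day 0 and 5.12 and 5.14 on day 2 (0.15 ± 0.13, 95% interval -0.14 to 0.44, adjusted p = 0.66). The knockout arrays of Dgat2 thus lay close together on both days, above the WT arrays of day 0 and below those of day 2. Gpd2 was 7.64 and 7.91 in knockout cells on day 0 and 6.86 and 7.13 on day 2, and fell 1.72-fold (-0.78 ± 0.18, adjusted p = 0.0415). Among all genes 2.14% rose and 3.57% fell in the knockout cells. Agpat2 had a value of -0.50 ± 0.16 (adjusted p = 0.134). Leaving out any 1 of the 4 knockout arrays ended the calls of Dgat1 (adjusted p = 0.0698 to 0.246) and of Gpd2 (0.088 to 0.257), and without either WT day 2 array Gpd2 had an adjusted p = 0.054.

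Under the source label no gene of the route was called between days. A group by that label holds 1 array of each title day. The day change was then 0.22 for Lpin1 in MED1-KO and 0.29 in WT cells, and 0.01 for Dgat2 in MED1-KO and 0.18 in WT cells. For Dgat1 it was -0.28 in MED1-KO and -0.26 in WT cells, and for Gpd2 it was 0.27 in MED1-KO and 0.33 in WT cells, each with the opposite sign to the value by title.

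**Figure D1:**
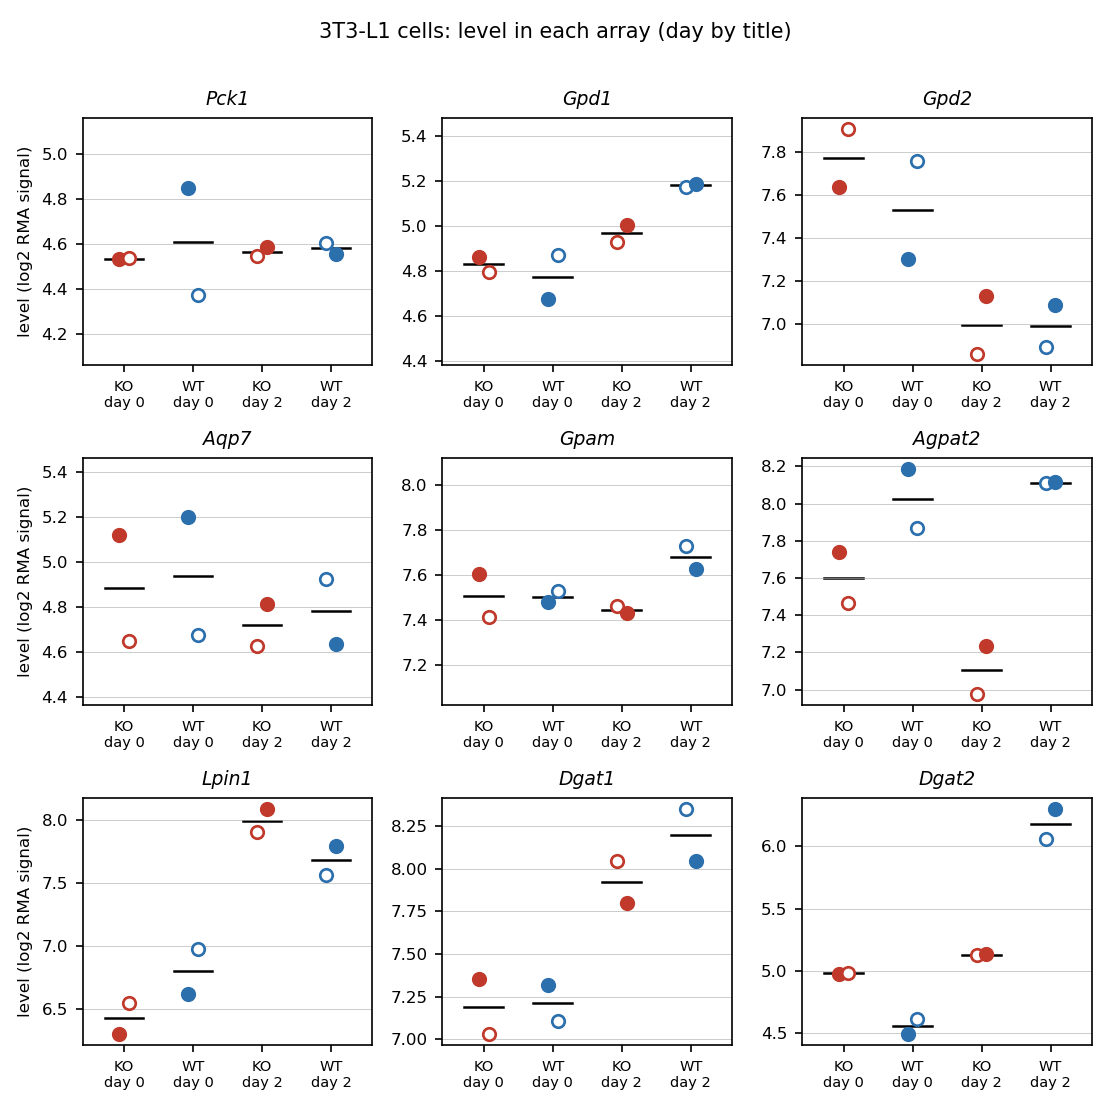
Levels of the 9 genes in the 8 arrays of 3T3-L1 cells, 1 panel a gene, with the log2 RMA signal on the vertical axis (each panel has its own scale) and MED1-KO (red) and WT (blue) arrays by title day on the horizontal axis. Points are arrays, bars are means of 2 arrays, and open points are arrays whose source label names another day. Dgat2 lies at 5.12 and 5.14 in knockout arrays of day 2 and at 6.06 and 6.30 in WT arrays of day 2.

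On day 2 the largest differences between the genotypes among the 9 genes were in Dgat2 and Agpat2. Dgat2 was 5.12 and 5.14 in MED1-KO cells, against 6.06 and 6.30 in WT cells, 2.07-fold lower (-1.05 ± 0.13, adjusted p = 0.0158). Agpat2, whose loss causes lipodystrophy in people and mice, was 6.98 and 7.23 in MED1-KO cells, against 8.11 in both WT arrays, and just missed the threshold (-1 ± 0.16, adjusted p = 0.0512). Between these arrays 4 of the 9 genes did not overlap and were lower in knockout cells (Gpd1, Gpam, Agpat2 and Dgat2), against 18.9% of all genes. Lpin1 alone of the 9 did not overlap and was higher, against 17.4% of all genes. By the test 1 of 9 was lower, against 0.234% of all genes. The other genes had values of 0.31 for Lpin1, -0.28 for Dgat1, -0.23 for Gpam, -0.21 for Gpd1, -0.06 for Aqp7, -0.02 for Pck1 and 0.00 for Gpd2, with adjusted p-values of 0.689 to 0.996. The call of Dgat2 was lost without knockout replicate 1 (adjusted p = 0.164), knockout replicate 2 (0.126) or WT replicate 2 (0.102). By the source label Dgat2 had a value of -0.40 ± 0.63 and Agpat2 of -0.64 ± 0.25, with an adjusted p of 1.

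Of 4 regulators of fat cell genes, Pparg and Cebpa were called lower in the knockout cells on day 2. Pparg, the nuclear receptor that directs fat cell formation, was 5.84 and 5.87 in MED1-KO cells, against 7.94 and 7.80 in WT cells (-2.01 ± 0.13, adjusted p = 0.000374). Cebpa, which acts with it, was 2.57-fold lower (-1.36 ± 0.13, adjusted p = 0.00386). Srebf1, a regulator of lipid synthesis, had a value of -0.77 ± 0.25 (adjusted p = 0.45) and Ppargc1a, a coactivator, of -0.06 ± 0.24 (adjusted p = 0.981). By the source label no call was left, with -1.29 ± 0.83 for Pparg and -0.97 ± 0.71 for Cebpa and an adjusted p of 1. Over the 4 pairs of arrays of 1 title day and replicate number, Pparg and Cebpa were lower throughout, against 10.8% of all genes. Their values were -1.4 ± 0.23 (adjusted p = 0.072) and -0.9 ± 0.18 (adjusted p = 0.12), while Srebf1 and Ppargc1a had mixed signs. This comparison holds under either label. On day 0 by title Pparg had -0.79 ± 0.13 (adjusted p = 0.0646) and Cebpa -0.44 ± 0.13 (adjusted p = 0.623). The mean level over 7 fat cell markers was 5.25 to 5.40 in MED1-KO arrays, against 6.21 to 6.33 in WT arrays, and 3 of the 7 were called lower, Fabp4 (-2.03 ± 0.24), Cidec (-1.46 ± 0.18) and Retn (-1.07 ± 0.16). Fibroblast markers had mean levels of 8.99 to 9.05 in MED1-KO arrays, against 9.55 to 9.61 in WT arrays. Called lower were 2 of 5, Dcn (-1.96 ± 0.16) and Lum (-1.28 ± 0.17), against 0.234% of all genes. Of the 5, 2 were higher without overlap, against 17.4% of all genes, and the median was -0.04. By the source label 0 of all 22180 genes were called between genotypes on day 2. The part of these lists in the lower Dgat2 was not tested. In bulk RNA, fewer cells of a type and less RNA per cell cannot be told apart.

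On day 0 limma called 0 of the 9 genes, against 0.185% of all genes. At an unadjusted p under 0.05 there were 1 higher and 1 lower, against 445 and 638 of all 22180 genes. Dgat2 was 4.98 in both MED1-KO arrays, against 4.5 and 4.62 in WT arrays, opposite in sign to day 2 (0.42 ± 0.13, adjusted p = 0.712). Agpat2 was 7.74 and 7.46 in MED1-KO cells, against 8.19 and 7.87 in WT cells (-0.42 ± 0.16, adjusted p = 0.936). By the source label the day 0 values were -0.23 ± 0.63 for Dgat2, with the same sign as on day 2, and -0.79 ± 0.25 for Agpat2, with an adjusted p of 1. Pck1, Aqp7, Dgat2 and Gpd1 were dim in cells, under the median level of the array in 7, 4, 2 and 1 of the 8 arrays.

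Over the 4 pairs of arrays that share a title day and a replicate number, a comparison that holds under either label, only Agpat2 of the 9 genes had 1 sign throughout. It was lower in MED1-KO than in WT cells by 0.44 and 0.40 on day 0 and by 1.13 and 0.88 on day 2, where 10.8% of all genes were lower in all pairs. The fold change was 1.64 (-0.71 ± 0.13, unadjusted p = 0.000601, adjusted p = 0.0949). None of the 9 was called by limma, against 0.289% of all genes. At an unadjusted p under 0.05, 0 were higher and 1 lower, against 1245 higher and 1491 lower of all 22180 genes. With a variance trend and robust fitting, or with dim genes left out, Agpat2 passed (adjusted p = 0.0205 and 0.0409).

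The test of whether the day change itself differed between genotypes called 0 of the 9 genes, and 0% of all genes, by limma. Its largest value was that of Dgat2, whose change was smaller in MED1-KO than in WT cells by 1.47 on the log2 scale (-1.47 ± 0.18, 95% interval -1.89 to -1.06, unadjusted p = 1.9e-05, adjusted p = 0.105). Lpin1 had a value of 0.69 ± 0.24 and Agpat2 of -0.58 ± 0.23, both with an adjusted p of 1. By the source label these differences were -0.17 ± 0.89 for Dgat2, -0.08 ± 0.98 for Lpin1 and 0.15 ± 0.36 for Agpat2, with an adjusted p of 1. At an unadjusted p under 0.05 there were 1 higher and 2 lower among the 9, and 441 higher and 500 lower among all genes. The same test called 0 genes with a variance trend and robust fitting and 11 in a fit over all 19 arrays.

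**Figure D2:**
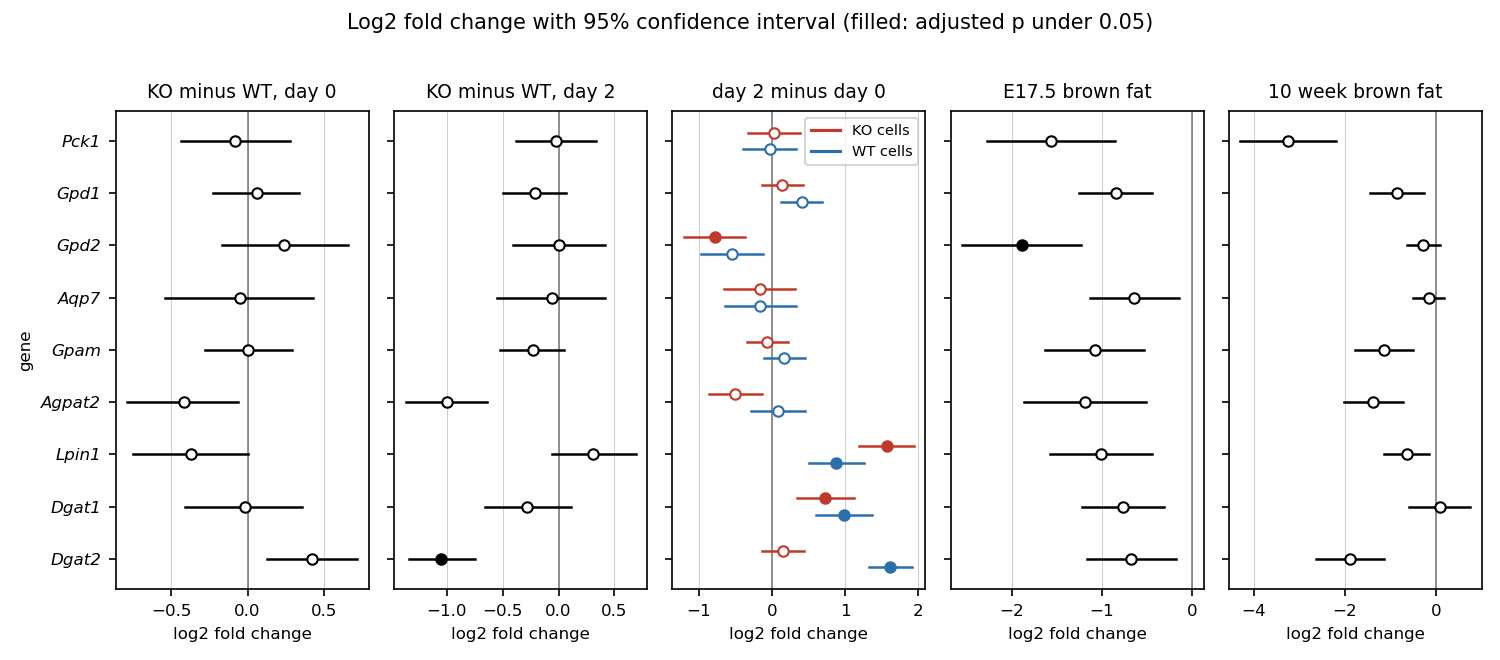
Log2 fold changes of the 9 genes (rows) in 5 panels, with points at the estimate, lines for the 95% confidence interval and filled points for an adjusted p under 0.05. The first 2 panels give MED1-KO minus WT cells on day 0 and day 2, the third gives day 2 minus day 0 in MED1-KO (red) and WT (blue) cells, and the last 2 give Myf5Cre Med1f/f minus Myf5Cre Med1f/w at E17.5 and AdipoqCre Med1f/f minus Med1f/f at 10 weeks. All 9 intervals at E17.5 lie below 0.

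In brown fat at E17.5 all 9 genes had lower levels in Myf5Cre Med1f/f than in Myf5Cre Med1f/w embryos, with a median log2 fold change of -1.01 against -0.01 over all genes. Gpd2, the mitochondrial enzyme of the glycerol-3-phosphate shuttle, was 5.92, 6.70, 6.38 and 6.11 in Myf5Cre Med1f/f arrays, against 7.72, 8.01 and 8.78 in Myf5Cre Med1f/w arrays. It fell 3.71-fold (-1.89 ± 0.28, adjusted p = 0.0459). The groups lay more than 1 log2 unit apart. By the adjusted test 1 of 9 genes was lower, against 0.5% of all genes. At an unadjusted p under 0.05, 9 of 9 were lower, against 9.13% of all genes. In 8 of 9 no array of the Myf5Cre Med1f/f embryos reached the lowest control array, against 6.83% of all genes.

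Of the other genes around glycerol-3-phosphate, Pck1 was 7.12, 7.48, 7.38 and 7.18 in Myf5Cre Med1f/f, against 8.22, 8.72 and 9.62 in Myf5Cre Med1f/w (-1.56 ± 0.30, adjusted p = 0.062). Gpd1, the cytosolic enzyme of the shuttle, was 10.75, 11.14, 11 and 10.55 in Myf5Cre Med1f/f, against 11.43, 11.77 and 11.93 in Myf5Cre Med1f/w (-0.85 ± 0.17, adjusted p = 0.0658). Neither passed the threshold, though their arrays did not overlap. Aqp7, the glycerol channel, was 9.06 to 9.69 in Myf5Cre Med1f/f, against 9.54 to 10.22 in Myf5Cre Med1f/w, and was the only one of the 9 whose groups overlapped (-0.64 ± 0.21, adjusted p = 0.155).

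The loading enzymes were 1.6- to 2.28-fold lower at E17.5. Agpat2 was 8.04, 8.29, 7.85 and 7.65 in Myf5Cre Med1f/f, against 9.09, 8.55 and 9.79 in Myf5Cre Med1f/w (-1.19 ± 0.29, adjusted p = 0.0858). Gpam, the mitochondrial acyltransferase of the first step, was 7.26, 7.87, 7.91 and 7.53 in Myf5Cre Med1f/f, against 8.34, 8.67 and 9.17 in Myf5Cre Med1f/w (-1.08 ± 0.23, adjusted p = 0.0708). In both enzymes every Myf5Cre Med1f/f array was below every control array. Lpin1 averaged 7.37 ± 0.35 in Myf5Cre Med1f/f (SD, n = 4) and 8.38 ± 0.41 in Myf5Cre Med1f/w (SD, n = 3), with a log2 fold change of -1.01 ± 0.24 (adjusted p = 0.0837 by limma). Dgat1 averaged 7.52 ± 0.18 in Myf5Cre Med1f/f and 8.29 ± 0.41 in Myf5Cre Med1f/w (-0.77 ± 0.19, adjusted p = 0.0939). The smallest difference of the loading steps was that of Dgat2, with 7.38 ± 0.29 in Myf5Cre Med1f/f and 8.06 ± 0.36 in Myf5Cre Med1f/w (-0.68 ± 0.21, adjusted p = 0.144).

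The adjusted call of Gpd2 was lost when any 1 of the 7 arrays was left out (adjusted p = 0.0506 to 0.124), and each such fit called 0 of all 22180 genes. With an array left out, 7 to 9 of the 9 genes still had an unadjusted p under 0.05 and the median ran from -0.79 to -1.19. The value of -0.79 is that without Myf5Cre Med1f/w replicate 3, which had the highest mean level over the 9 genes (9.50, against 8.67 and 8.94 in the other control arrays and 7.75 to 8.21 in Myf5Cre Med1f/f arrays).

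**Figure D3:**
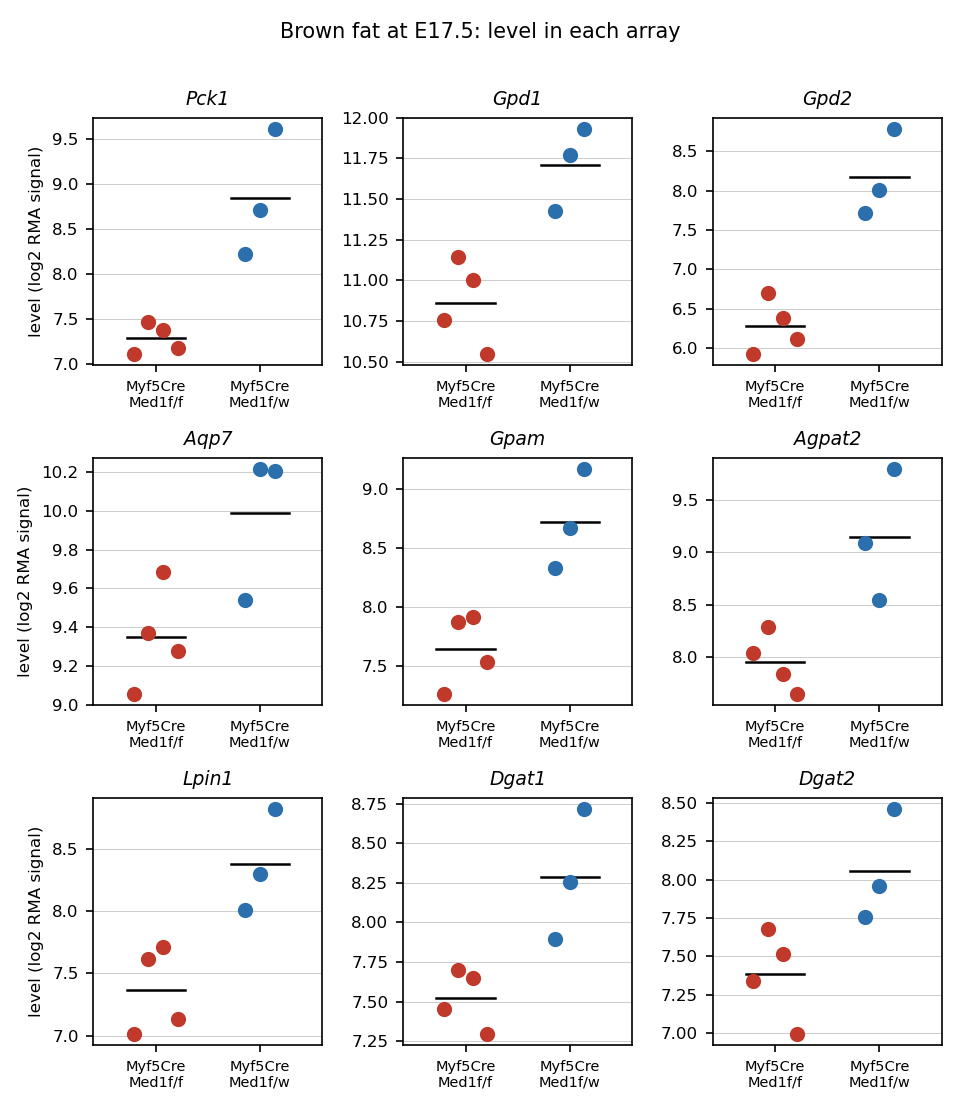
Levels of the 9 genes in interscapular brown fat at E17.5, 1 panel a gene, with the log2 RMA signal on the vertical axis (each panel has its own scale) and Myf5Cre Med1f/f (red, 4 arrays) left of Myf5Cre Med1f/w (blue, 3 arrays). Points are arrays and bars are means; Aqp7 alone has overlapping groups, and Gpd2 has 5.92 to 6.70 in Myf5Cre Med1f/f and 7.72 to 8.78 in Myf5Cre Med1f/w.

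Markers of several cell types moved with the genotype at E17.5. The mean level over 7 fat cell markers was 9.01 to 9.26 in Myf5Cre Med1f/f, against 9.51 to 9.87 in Myf5Cre Med1f/w. Of 9 brown fat markers 2 were called lower, against 0.5% of all genes. They were Ucp1, which makes heat by uncoupling respiration (-3.14 ± 0.40, adjusted p = 0.0439), and Dio2, which activates thyroid hormone (-1.66 ± 0.17, adjusted p = 0.036). At an unadjusted p under 0.05 there were 4 lower and 2 higher among these 9, against 2026 lower and 2421 higher of all 22180 genes. The 2 higher markers were Zic1 (0.42 ± 0.13, adjusted p = 0.136) and Lhx8 (0.39 ± 0.14, adjusted p = 0.194). The mean level of the 9 markers was 6.61 to 6.93 in Myf5Cre Med1f/f, against 7.29 to 7.76 in Myf5Cre Med1f/w. Skeletal muscle markers, 10 in all, had mean levels of 7.15 to 7.41 in Myf5Cre Med1f/f, against 5.72 to 6.77 in Myf5Cre Med1f/w. Of these, 8 were higher without overlap, against 1899 of all 22180 genes, and 0 were called. Fibroblast markers had 9.73 to 9.99 in Myf5Cre Med1f/f, against 8.83 to 9.49 in Myf5Cre Med1f/w. Called higher was 1 of 5 (Col1a1, 0.60 ± 0.09), against 146 of all 22180 genes. Of the 5, 4 were higher without overlap, against 1899 of all genes. Macrophage markers had 6.06 to 6.31 in Myf5Cre Med1f/f, against 5.73 to 5.98 in Myf5Cre Med1f/w, with 2 of 6 higher without overlap and 0 called. The part of these in the lower levels of the 9 genes was not tested. Pparg was -0.31 ± 0.08 (adjusted p = 0.106) and Cebpa -0.49 ± 0.12 (adjusted p = 0.0788). Srebf1 was 6.62 to 7.25 in Myf5Cre Med1f/f, against 7.12 to 7.76 in Myf5Cre Med1f/w. Ppargc1a was 7.99 to 8.56 in Myf5Cre Med1f/f, against 8.67 to 8.90 in Myf5Cre Med1f/w.

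In brown fat at 10 weeks none of the 9 genes was called by limma, against 0.0271% of all genes, with 2 arrays a group. At an unadjusted p under 0.05, 6 of 9 were lower in AdipoqCre Med1f/f mice, against 5.83% of all genes. In 8 of 9 both AdipoqCre Med1f/f arrays lay below both Med1f/f arrays, against 20.1% of all genes. The median log2 fold change of the 9 was -0.86, against 0 over all genes. With 1 array left out the median ran from -0.78 to -1 and 5 genes had an unadjusted p under 0.05 each time, where the lone array of a group is assumed to vary like the pair of the other.

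Pck1 had the largest fold change. It was 7.37 and 8.36 in AdipoqCre Med1f/f, against 10.70 and 11.50 in Med1f/f mice, 9.45-fold lower (-3.24 ± 0.41, unadjusted p = 0.000442, adjusted p = 0.0803). Dgat2 came next with 9.09 and 8.36 in AdipoqCre Med1f/f, against 10.83 and 10.41 in Med1f/f, 3.71-fold lower (-1.89 ± 0.29, adjusted p = 0.0961). The gap between the groups exceeded the spread within each in both genes. Agpat2 was 9.69 and 9.04 in AdipoqCre Med1f/f, against 10.90 and 10.58 in Med1f/f (-1.38 ± 0.26, adjusted p = 0.123). Gpam was 8.40 and 8.70 in AdipoqCre Med1f/f, against 9.38 and 10.01 in Med1f/f (-1.14 ± 0.25, adjusted p = 0.152). Gpd1 was 11.05 and 10.47 in AdipoqCre Med1f/f, against 11.74 and 11.50 in Med1f/f (-0.86 ± 0.23, adjusted p = 0.209). These genes too were below both control arrays.

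The remaining 4 genes differed less at 10 weeks. Lpin1 was 8.94 and 9.18 in AdipoqCre Med1f/f, against 9.51 and 9.92 in Med1f/f (-0.65 ± 0.20, adjusted p = 0.246). Gpd2 was 10.06 and 10.17 in AdipoqCre Med1f/f, against 10.49 and 10.31 in Med1f/f (-0.28 ± 0.14, 95% interval -0.64 to 0.08). For these genes the groups did not overlap. Aqp7 was 9.66 and 9.60 in AdipoqCre Med1f/f, against 9.76 and 9.85 in Med1f/f (-0.17 ± 0.13, 95% interval -0.51 to 0.16). Dgat1 was 8.08 and 8.51 in AdipoqCre Med1f/f, against 7.91 and 8.53 in Med1f/f (0.08 ± 0.27, 95% interval -0.60 to 0.75), the only gene whose groups overlapped.

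**Figure D4:**
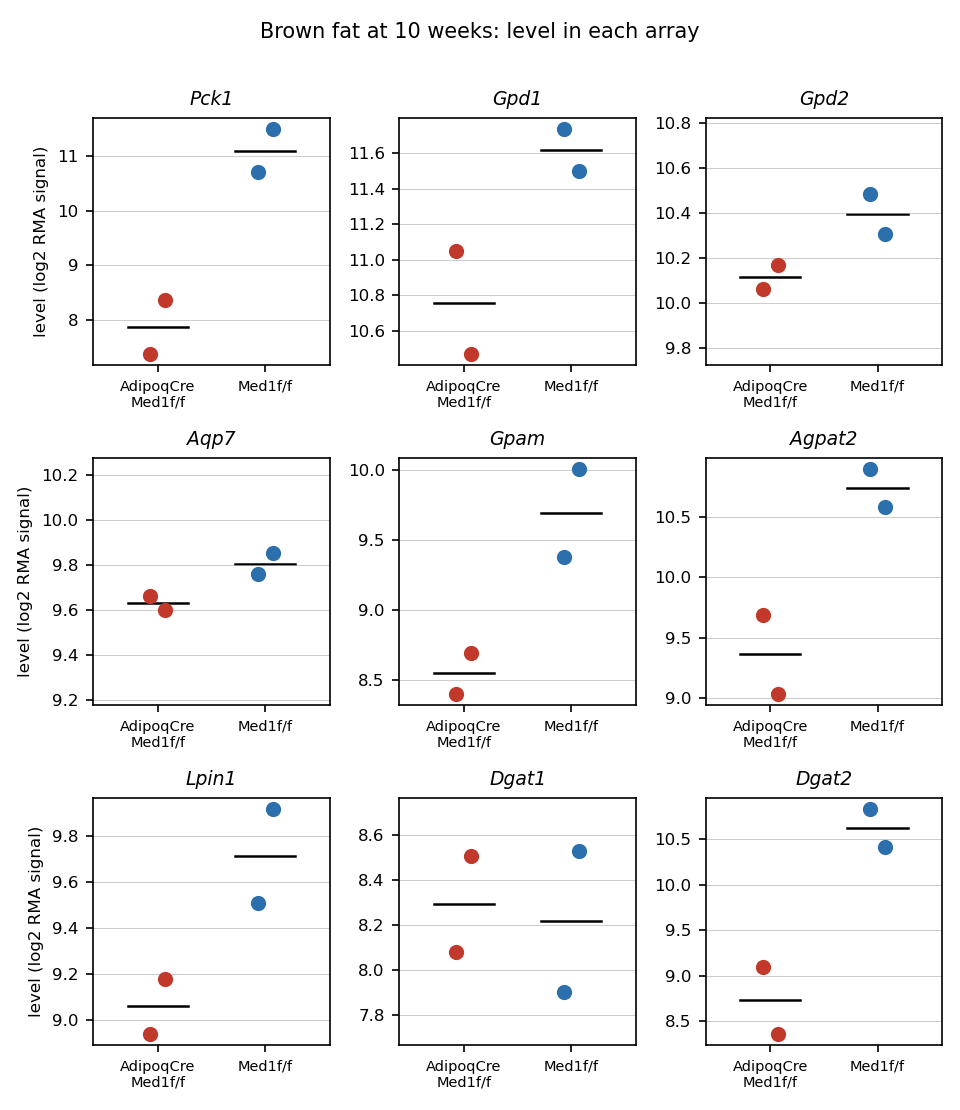
Levels of the 9 genes in interscapular brown fat at 10 weeks, 1 panel a gene, with the log2 RMA signal on the vertical axis (each panel has its own scale) and AdipoqCre Med1f/f (red, 2 arrays) left of Med1f/f (blue, 2 arrays). Points are arrays and bars are means; Pck1 has 7.37 and 8.36 in AdipoqCre Med1f/f and 10.70 and 11.50 in Med1f/f, while Dgat1 overlaps.

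Macrophage markers were higher at 10 weeks, with mean levels of 7.03 to 7.09 in AdipoqCre Med1f/f, against 5.50 to 5.83 in Med1f/f. Their median was 1.34, with 0 called and 6 of 6 higher without overlap, against 4832 of all 22180 genes. Fibroblast markers had 8.23 to 8.36 in AdipoqCre Med1f/f, against 7.33 to 7.58 in Med1f/f, and the 7 fat cell markers 9.14 to 9.32 in AdipoqCre Med1f/f, against 9.87 to 10.05 in Med1f/f. The 9 brown fat markers had 6.55 to 7.01 in AdipoqCre Med1f/f, against 7.13 to 7.88 in Med1f/f, with 0 called. At an unadjusted p under 0.05, 3 were lower and 2 higher (Zic1 and Lhx8), against 1293 and 1720 of all 22180 genes. The part of these lists in the lower levels of the 9 genes was not tested. Skeletal muscle markers overlapped, with 3.03 to 3.51 in AdipoqCre Med1f/f, against 3.11 to 3.91 in Med1f/f. Pparg was 9.37 and 9.31 in AdipoqCre Med1f/f, against 9.94 and 10.15 in Med1f/f (-0.70 ± 0.14, adjusted p = 0.137), and Cebpa had a value of -1.53 ± 0.25 (adjusted p = 0.105). The other regulators overlapped. Srebf1 was 6.71 and 5.56 in AdipoqCre Med1f/f, against 7.22 and 5.46 in Med1f/f. Ppargc1a was 7.62 and 8.81 in AdipoqCre Med1f/f, against 7.63 and 10.04 in Med1f/f.

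The knockout effects at 10 weeks and at E17.5 were compared in 1 fit of the 11 brown fat arrays. It called 0 of the 9 genes by limma, against 1.99% of all genes. At an unadjusted p under 0.05 there were 2 higher and 2 lower, against 1956 and 1655 of all 22180 genes. Age, Cre driver and control genotype differ together between these experiments and cannot be told apart. Gpd2 had -0.28 at 10 weeks and -1.89 at E17.5, a difference of 1.61 ± 0.39 (95% interval 0.74 to 2.48, adjusted p = 0.0707). The adjusted p was 0.0465 without Myf5Cre Med1f/w replicate 1. Pck1 had -3.24 at 10 weeks and -1.56 at E17.5, a difference of -1.68 ± 0.54 (adjusted p = 0.153). Dgat2 had -1.89 at 10 weeks and -0.68 at E17.5 (difference -1.22 ± 0.38, adjusted p = 0.139), while for Dgat1 these were 0.08 and -0.77 (difference 0.84 ± 0.35, adjusted p = 0.257). Gpam, Agpat2 and Gpd1 had differences of -0.06 ± 0.38, -0.19 ± 0.45 and -0.01 ± 0.30, with 95% intervals of -0.90 to 0.77, -1.18 to 0.80 and -0.68 to 0.65.

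Other genes of the pathway were set beside these 9. The other glycerolipid enzymes were 16 genes, with isoforms of the loading steps and also other enzymes such as Mogat1, Mogat2 and Plpp1. They had a median of -0.13 at E17.5 with 0 called. At an unadjusted p under 0.05, 3 were higher and 3 lower, against 2421 and 2026 of all 22180 genes. The median of these 16 at 10 weeks was 0.19 with 0 called. For 12 other genes of glycerol and glycerol-3-phosphate supply the medians were -0.10 at E17.5 and 0.04 at 10 weeks. They were -0.04 and -0.20 for 7 measured fatty acyl-CoA synthetases, which activate the fatty acids. Acsl1 and Acsl3 of that list were not measured, and its 10 week values ran from -4.07 to 1.04. For 16 measured genes of the phospholipid branch the medians were -0.17 and -0.11. In these lists 1 gene passed the test of the knockout, Chpt1, which makes phosphatidylcholine from diacylglycerol, at 6.97 ± 0.17 in Myf5Cre Med1f/f (SD, n = 4) and 7.63 ± 0.14 in Myf5Cre Med1f/w (SD, n = 3; -0.66 ± 0.11, adjusted p = 0.047 by limma).

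**Figure D5:**
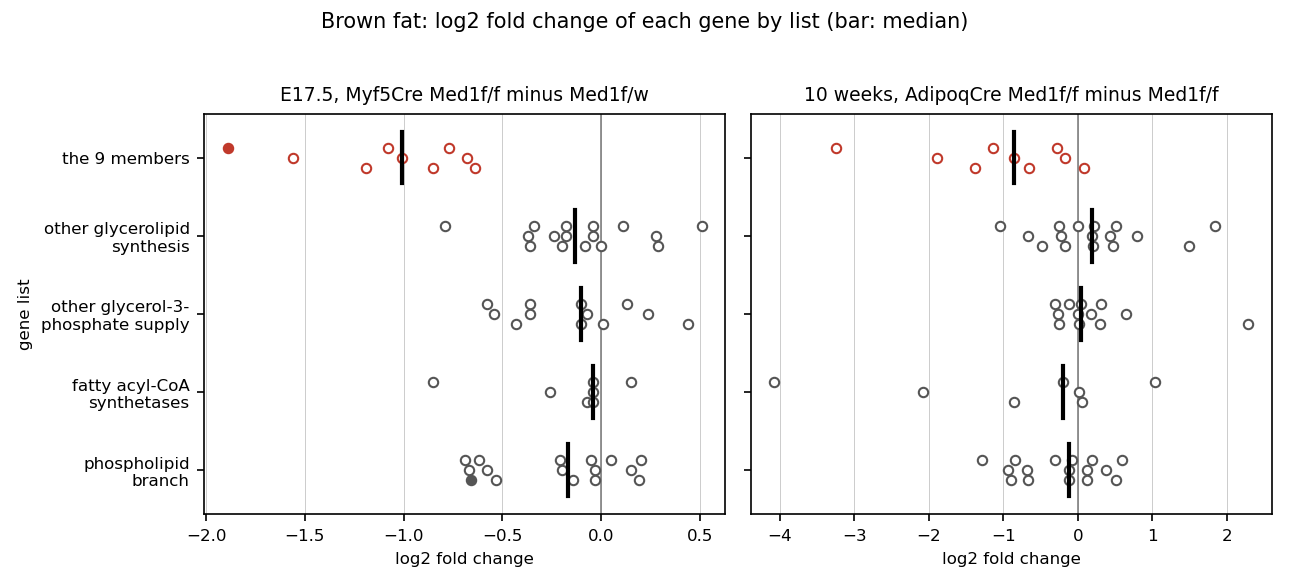
Log2 fold changes of single genes (points, horizontal axis) by gene list (rows) in brown fat, Myf5Cre Med1f/f minus Myf5Cre Med1f/w at E17.5 on the left and AdipoqCre Med1f/f minus Med1f/f at 10 weeks on the right. Bars are list medians and filled points have an adjusted p under 0.05; the median of the 9 genes is -1.01 at E17.5 and -0.86 at 10 weeks, and those of the other lists lie between -0.20 and 0.19.

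Between day 0 and day 2 of differentiation, 4 of the 16 other glycerolipid enzymes rose in MED1-KO and 5 in WT cells, and 0 fell. Among all genes 2.14% rose and 3.57% fell in MED1-KO cells, and 3.44% rose and 5.64% fell in WT cells. Gpat4, which performs the first step at the endoplasmic reticulum, rose in both, by 0.57 ± 0.13 in MED1-KO and 0.55 ± 0.13 in WT cells. The acyltransferases Agpat4 and Agpat5 and the phosphatase Plpp1 also rose in both. Gpat3, an isoform of the first step that fat cells induce, was 4.78 and 5.13 in MED1-KO cells on day 0 and 4.56 and 4.74 on day 2 (-0.30 ± 0.15, adjusted p = 0.371). In WT cells Gpat3 was 4.48 and 4.69 on day 0 and 5.52 and 5.55 on day 2 and rose 1.93-fold (0.95 ± 0.15, adjusted p = 0.00507). The difference of these day changes was -1.25 ± 0.22 (adjusted p = 0.329). Upstream of Pck1, pyruvate carboxylase (Pcx) rose 3.18-fold in MED1-KO and 5.04-fold in WT cells, and the mitochondrial isoform Pck2 fell 1.86-fold in MED1-KO and 1.71-fold in WT cells. By the source label none of these calls was left (each adjusted p was 1). The day change was then -0.05 in MED1-KO and 0.04 in WT cells for Gpat4, 0.26 and 0.12 for Gpat3, -0.17 and -0.33 for Pcx, and -0.09 and 0.18 for Pck2.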

How the data were processed

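RNA was measured on 19 Affymetrix mouse arrays, for which the authors deposited log2 values per transcript cluster. These were made with RMA, and Transcriptome Analysis Console is also named, per the submitters' processing notes, without versions. RMA subtracts background, equalises the distributions of the arrays and combines probes into 1 value. The array medians fall into 3 sets, so the experiments look normalized apart, and levels were compared only within an experiment. The test of 10 weeks against E17.5 sets differences made within each experiment against each other in 1 fit. The genome build of the array annotation is not given in the sources used here.

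Of 41345 transcript clusters, 23521 had 1 gene symbol, which gave 22180 genes, with the brightest cluster kept for the 1082 genes that had several. No dim gene was removed. No 2 arrays held identical values. Two-sided tests were made in R 4.3.3 with limma 3.58.1, its lmFit and eBayes functions at default settings. Benjamini-Hochberg adjusted p-values over all genes were read at 0.05. Values after ± are standard errors of a log2 fold change unless SD is written. Day-specific cell tests shared a fit of 4 groups with 4 residual degrees of freedom, the E17.5 fit had 5, the 10 week fit 2 and the joint brown fat fit 7.

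The pair comparison used title day and replicate number as a block. Same-numbered MED1-KO and WT arrays deviated together (correlation 0.35 on day 0 and 0.30 on day 2), while in embryos the values were 0.31, -0.02 and 0.11, so embryo numbers were not taken as pairs. At 10 weeks the value was 0.33, near those of the cells, which also had 2 pairs a day. The 10 week test was still made without pairs. With the replicate block Pck1 and Dgat2 were called there by limma (adjusted p = 0.0351 and 0.0409). The cells were paired because that comparison holds under either day label. Between days the correlation was 0.17 in MED1-KO and 0.03 in WT cells. The fits were tested on simulated data. The genes named are the 9 measured ones of the list, the regulators and marker lists, and those of the other pathway lists past the test. The genes, lists and comparisons were chosen with earlier results of these data known. A marker list for red blood cells had no gene with a cluster of 1 symbol. Endothelial markers had a median log2 fold change of -0.16 at E17.5 and -0.20 at 10 weeks, and epidermal markers of -0.17 and 0.09. Alternatives tried were each array left out, a variance trend with robust fitting, quantile normalization, a filter on dim genes, the mean of a gene's clusters, the day by the source label, the replicate block and 1 fit over all arrays.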

Additional observations from a re-analysis of the deposited data

Results flagged for a closer look

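Among the genes shown, 30 were checked for an array far from the others of its group in groups of 4 arrays, and 1 stood apart: Acsl4, an acyl-CoA synthetase, was 5.88 in Myf5Cre Med1f/f replicate 3, against 6.10 in the other 3 arrays of that group. Those 3 arrays held the same value to 6 digits (6.09616), so any other value in replicate 3 would have been flagged. Without such ties, chance alone flags about 1 in 20 groups.

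The knockout effect differed between 10 weeks and E17.5 in 4 genes of the other pathway lists, by the test of the difference in 1 fit. Aqp11, an aquaglyceroporin found inside cells, was 6.73 and 7.43 in AdipoqCre Med1f/f, against 4.81 and 4.77 in Med1f/f, and 5.93 to 6.29 in Myf5Cre Med1f/f, against 6.34 to 6.92 in Myf5Cre Med1f/w (difference of log2 fold changes 2.88 ± 0.29, adjusted p = 0.00256 by limma). Mogat1, which makes diacylglycerol from monoacylglycerol, was 5.37 and 5.92 in AdipoqCre Med1f/f, against 3.56 and 4.05 in Med1f/f, and 2.97 to 3.19 in Myf5Cre Med1f/f, against 3.18 to 3.43 in Myf5Cre Med1f/w (difference 2.02 ± 0.25, adjusted p = 0.00503). It was under the array median in all 7 arrays of E17.5. Gpat3 was 5.82 and 6.27 in AdipoqCre Med1f/f, against 4.44 and 4.64 in Med1f/f, and 4.43 to 4.98 in Myf5Cre Med1f/f, against 4.98 to 5.32 in Myf5Cre Med1f/w (difference 1.86 ± 0.26, adjusted p = 0.00719). Acsl5, an acyl-CoA synthetase, was 6.86 and 7.26 in AdipoqCre Med1f/f, against 9.41 and 8.85 in Med1f/f, and 6.11 to 6.25 in Myf5Cre Med1f/f, against 6.09 to 7.08 in Myf5Cre Med1f/w (difference -1.81 ± 0.37, adjusted p = 0.0361). None of the 4 passed within the 10 week arrays alone (adjusted p = 0.0702 to 0.0859). Myf5Cre Med1f/f replicates 1 and 2 held the same value to 6 digits in Gpat3 (4.98274), Mogat1 (3.18755) and Acsl5 (6.19421). Such ties narrow the spread within a group, and their part in these p-values was not tested.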

How the results depend on the processing

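The number of the 9 genes called depended on the settings. Over the 4 cell pairs it was 0, and 1 with a variance trend and robust fitting or with a filter on dim genes; without the replicate block it stayed 0. Between genotypes on day 2 it was 1, 0 to 1 with an array left out, 2 with a variance trend and robust fitting or the dim filter, and 0 by the source label or in 1 fit over all 19 arrays. Between days it was 3 in MED1-KO cells, 1 to 3 with an array left out, 2 with quantile normalization (Gpd2 with an adjusted p = 0.0616), 0 by the source label and 1 in the fit over all arrays. In WT cells it was 3, 2 to 3 with an array left out, 4 with the dim filter (Gpd1 with 0.047) or the replicate block (Gpd2 lower, with 0.0229), and 0 by the source label. At E17.5 it was 1, 0 to 0 with an array left out, 2 with quantile normalization, 7 with the dim filter, 0 with the replicate block and 9 in the fit over all arrays. At 10 weeks it was 0, with 1 under a variance trend and robust fitting, 2 with the replicate block (Pck1 with an adjusted p = 0.0351 and Dgat2 with 0.0409) and 5 in the fit over all arrays. For the difference between 10 weeks and E17.5 it was 0, 0 to 1 with an array left out and 1 with the dim filter. In brown fat and between days the labels do not say what the replicate number pairs, and the deviations of same-numbered arrays did not settle it.

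A day change by the source label sets replicate 2 against replicate 1 of the titles. By that label, called day changes of the route changed sign for Gpd2 (0.27) and Dgat1 (-0.28) in MED1-KO cells and Dgat1 (-0.26) in WT cells. Those of Lpin1 in both genotypes and of Dgat2 in WT cells kept theirs. Called day changes of regulators and other pathway genes changed sign too, though not all. In MED1-KO cells these included Cebpa, Ppargc1a, Pcx, Gpat4 and Plpp1. In WT cells they included Pparg (-0.16), Cebpa, Srebf1, Ppargc1a, Pcx, Pck2 and Pemt. Signs were compared for called values only. The count of genes lower at an unadjusted p under 0.05, an alternative added after seeing the data, stayed within 1.5 times its value under each setting run, at E17.5 and at 10 weeks. The fit over all arrays takes 1 spread from cells, embryos and adults, and the dim filter tests fewer genes. Otherwise the cause was not tested.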

Other observations

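Some other genes around the route had large differences at 10 weeks, chosen here after their values were seen. Slc27a2, a fatty acid transporter and very long chain acyl-CoA synthetase, had a log2 fold change of -4.07 ± 0.88 in AdipoqCre Med1f/f against Med1f/f mice (adjusted p = 0.148 by limma) and of -0.85 ± 0.21 in Myf5Cre Med1f/f against Myf5Cre Med1f/w embryos (adjusted p = 0.0918). Crls1, which makes the mitochondrial lipid cardiolipin, had -1.29 ± 0.16 at 10 weeks (adjusted p = 0.0755) and -0.69 ± 0.15 at E17.5 (adjusted p = 0.0725). Agpat3, an acyltransferase of the same family as Agpat2, had -0.67 ± 0.13 at 10 weeks (adjusted p = 0.132) and -0.79 ± 0.14 at E17.5 (adjusted p = 0.0555). In each of these genes the arrays of the groups did not overlap at either age, and none passed the threshold.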
